A study of Homo sapiens with 10 samples.

Results

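Clones D4 and H3 of the KYSE-410 line, both edited to remove SHIP2, were set against each other gene by gene. KYSE-410 is a human cell line grown from a squamous carcinoma of the oesophagus, and SHIP2 is the protein encoded by INPPL1. The comparison took the 2 D4 libraries and the 2 H3 libraries, 4 of the 10 RNA libraries in the series, and every gene with at least 1 CPM (counts of gene-assigned reads scaled to a common library total) in 2 or more of these 4. That left 16856 genes. The pair was chosen because both clones kept nearly the same INPPL1 mRNA, so that choice used INPPL1 and no other gene.

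Clone D4 (SHIP2 knockout) and clone H3 (SHIP2 knockout) each grew from 1 sorted cell that had taken up Cas9 nickase plasmids with guide RNAs. The 2 further knockout clones, G4 and G10, and a wild-type control colony given the same vector without guides made up the other 6 libraries. The submitters screened the clones for SHIP2 by Western blot, and protein was not analysed here. Every group had 2 libraries, and nothing in the labels says whether these came from separate cultures. The p-values therefore measure only the spread between the 2 libraries of a group, which may be technical, and describe these clones. That spread was pooled over all 5 groups and moderated across genes.

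SHIP2 is a lipid phosphatase: it removes the 5-phosphate from the PI3K product PIP3, a lipid that recruits AKT to the membrane. It also binds the receptors EPHA2 and MET and adaptors of endocytosis. Growth factor receptors of squamous cells feed RAS and ERK, whose activity is read out in transcripts of the DUSP and SPRY feedback inhibitors, while YAP and TAZ, held back by the Hippo pathway, act through TEAD factors on genes of adhesion and matrix. Clones grown from single cells of a cancer line can also differ in ways that precede editing.

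Estimated depth was 10198890 and 9653837 reads in the D4 libraries, against 11960873 and 13318989 in the H3 libraries, within 9653837 to 14253437 over all 10. The pair of libraries correlated across genes, which are not independent replicates, at r = 0.9944 in D4 and 0.9961 in H3. A count of 3 reads, the limit that a count of 0 allows, equals 0.294 and 0.311 CPM in the D4 libraries and 0.251 and 0.225 CPM in the H3 libraries, for counting error only. Of 7 tested squamous markers 5 were higher in D4 and 0 lower, against 15.7% higher and 24.3% lower over all genes. TP63, the master regulator of squamous epithelium, had 177 and 160 CPM in D4, against 119 and 120 CPM in H3. Leukocyte markers other than CD68 and endothelial markers other than VWF stayed below the filter, and so did 6 of the 8 fibroblast markers. The fibroblast marker LUM, which encodes the matrix proteoglycan lumican, reached 56.8 and 50.1 CPM in D4 and 119 and 116 CPM in H3, against 4.50 and 4.55 CPM in the control.

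INPPL1 (ENSG00000165458, chromosome 11, 72223701 to 72239105 on GRCh38) stood at 83.6 and 93.3 CPM in D4 and at 88.1 and 85.3 CPM in H3, against 140 and 150 CPM in the control. The ranges of the 2 clones overlapped. Their difference, as everywhere below D4 minus H3 on the log2(CPM + 1) scale, was 0.03 ± 0.08 (SE, n = 2 libraries a clone). It is given as a description with no test, since the pair was chosen for it. INPPL1 lies in a long stretch of chromosome 11 whose genes were mostly higher in D4, described below. With the median of its 50 neighbouring genes subtracted in each library the difference became −0.39, likewise a description, which carries the median of those neighbours.

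Many other genes differed between the clones, mostly by less than 2-fold. In limma with Benjamini-Hochberg adjustment over all genes at 0.05, 2652 genes (15.7%) were higher in D4 and 4099 (24.3%) lower, together 6751 (40.1%). With a change of 2-fold or more, 285 genes (1.69%) were higher and 544 (3.23%) lower, together 829 (4.92%). At 4-fold, 34 genes were higher and 38 lower. Both D4 libraries lay on 1 side of both H3 libraries for 12000 genes (71.2%). The median over all genes was −0.07, and the direction of the split depended on scaling. With median-of-ratios size factors, which put the median at 0.00, 3418 genes were higher and 3337 lower, so that 50.6% of the calls were higher in D4 in place of 39.3%. Among pairs of knockout clones, the count at 2-fold was 829 for D4 and H3, against 462 for D4 and G10 and 1266 for G4 and H3. Every pair was counted over the same 16856 genes, which the filter on the D4 and H3 libraries had chosen. Genes seen only in G4 or G10 are therefore missing from the counts of the other pairs.

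Among the genes that rose most in D4, KRT17 (ENSG00000128422, chromosome 17, 41619441 to 41624842), a keratin of activated and basal squamous cells, had 331 and 370 CPM in D4, against 40.3 and 47.9 CPM in H3. The difference was 2.97 ± 0.08 (SE, adjusted p = 2.85e-12, limma), and the control lay above both clones at 424 and 449 CPM. ADAM19, a membrane metalloprotease, had 171 and 168 CPM in D4, against 27.1 and 34.0 CPM in H3. TNS4, a tensin of focal adhesions, had 122 and 118 CPM in D4, against 18.1 and 19.4 CPM in H3. For each of these genes the libraries of the clones were widely separated. KRT17 has near-identical pseudogenes, and reads shared with them were not separated.

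COL5A1 (chromosome 9, 134641774 to 134844843), a fibrillar collagen chain, had 24.2 and 26.8 CPM in D4, against 0.20 and 0.25 CPM in H3. Those H3 values rest on 2 and 3 estimated reads, against 247 and 259 in D4. The ratio of D4 to H3 over both libraries was 129, with a 95% exact counting interval of 54.9 to 399. In the control COL5A1 was also low, at 0.30 and 0.70 CPM, while clone G10 had 9.79 and 12.3 CPM and clone G4 1.6 and 1.4 CPM. SRGN, which encodes the proteoglycan serglycin, had 29.1 and 24.5 CPM in D4, against 0.20 and 0.40 CPM in H3 and 10.9 and 8.89 CPM in the control. IGF2, an imprinted growth factor gene, had 16.2 and 18.4 CPM in D4, against 1.35 and 1.70 CPM in H3 and 51.4 and 52.8 CPM in the control. INS-IGF2, which also ranked among the largest rises, overlaps IGF2, and their reads cannot be told apart without strand or junction data. Also among the 15 largest rises were LINC01468 (3.03), the uroplakin gene UPK1B (2.87), the interstitial collagenase gene MMP1 (2.78), CYP2B6 (2.77), the stromelysin gene MMP10 (2.62), the neurotrophin gene BDNF (2.44) and DUSP6 (2.43).

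**Figure D1:**
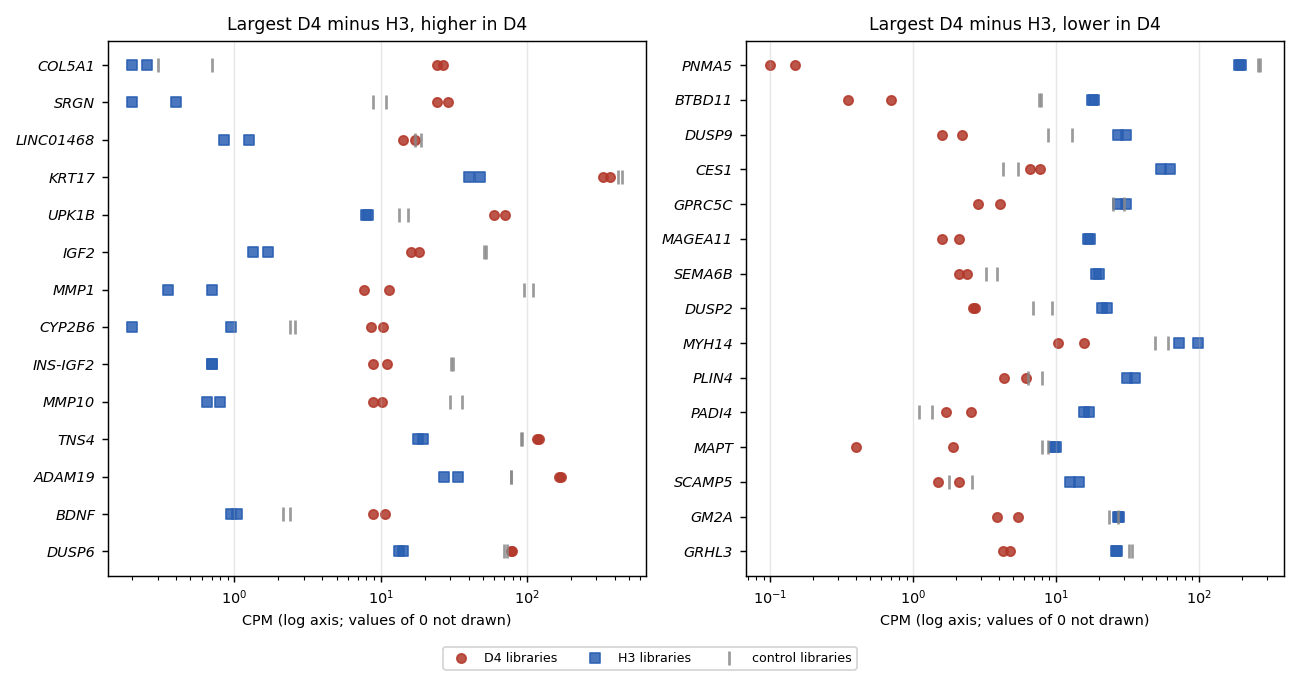
CPM on a log axis in each D4 library (circles), H3 library (squares) and control library (vertical ticks) for the largest differences in each direction. In every gene shown both D4 libraries lie on 1 side of both H3 libraries, a condition of the choice, while the control ticks fall on either side or between, as for TNS4 and PNMA5.

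The largest fall was that of PNMA5 (ENSG00000198883, chromosome X, 152988824 to 152994127), a gene of the paraneoplastic Ma antigen family. D4 had 0.10 and 0.15 CPM, or 1 estimated read in each library, against 197 and 193 CPM, or 2356 and 2576 reads, in H3. The control had 262 and 269 CPM, and the means of G4 and G10 were 258 and 232 CPM, so that D4 alone among the 5 groups was at the floor. PNMA5 was lower in D4 than in H3 by a ratio of 1940 in depth-scaled reads, with a 95% exact counting interval of 536 to 16000. The RefSeq window before its first annotated start lies at chrX:152994117-152994366 on the minus strand of GRCh38.p14. It is shown because reads of this gene were nearly missing in D4, and these reads were counted per gene, not per start. The capitals mark CG pairs, of which this window holds 16, while those of later starts, chrX:152992218-152992467 and chrX:152992214-152992463, hold 2 each. With the window richest in CG pairs taken for each gene, the median was 23 over the tested genes that matched. Over all genes of the RefSeq table it was 12. DNA sequence and methylation were not analysed here.
PNMA5: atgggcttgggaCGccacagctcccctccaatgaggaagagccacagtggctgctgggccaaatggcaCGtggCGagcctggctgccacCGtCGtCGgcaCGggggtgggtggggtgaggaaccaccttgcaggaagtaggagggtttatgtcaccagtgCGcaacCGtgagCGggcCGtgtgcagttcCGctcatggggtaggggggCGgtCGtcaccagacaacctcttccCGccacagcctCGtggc

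The 15 largest falls also took in DUSP9 and DUSP2, both MAP kinase phosphatases. DUSP9 had 2.2 and 1.6 CPM in D4, against 30.8 and 27.2 CPM in H3, and DUSP2 had 2.65 and 2.70 CPM in D4, against 22.9 and 21.03 CPM in H3. GRHL3, a transcription factor of epidermal barrier formation, had 4.75 and 4.25 CPM in D4, against 26.7 and 26.5 CPM in H3 and 32.6 and 34.4 CPM in the control. Clones G4 and G10 were also low in GRHL3, with means of 8.27 and 2.85 CPM. CES1, a carboxylesterase, had 7.75 and 6.65 CPM in D4, against 63.0 and 54.7 CPM in H3 and 5.40 and 4.25 CPM in the control, so that here H3 was the clone apart. PLIN4, a lipid droplet coat protein, had 4.35 and 6.15 CPM in D4, against 36.1 and 31.7 CPM in H3 and 6.35 and 8.04 CPM in the control. The other falls were BTBD11 (−3.66), GPRC5C (−2.78), the cancer-testis gene MAGEA11 (−2.68), the semaphorin gene SEMA6B (−2.67), the non-muscle myosin gene MYH14 (−2.64), the arginine deiminase gene PADI4 (−2.48), the tau gene MAPT (−2.43), SCAMP5 (−2.39) and the ganglioside activator gene GM2A (−2.35).

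Only 2 genes were at or under 3 reads in both libraries of 1 clone and at 5 CPM or more in the other, in each direction. In D4 these were PNMA5 and SALL2, a zinc finger transcription factor. SALL2 had 0.30 and 0.15 CPM in D4, against 7.45 and 6.70 CPM in H3. Its mean was also low in the other groups, at 1.17 CPM in the control, 1.45 CPM in G4 and 1.65 CPM in G10. Against the shared control SALL2 differed by 1.89 in H3 and by −0.83 in D4, so H3 lay further from the control. In H3 the genes at the floor were COL5A1 and ME3, the mitochondrial malic enzyme gene. ME3 had 7.75 and 7.49 CPM in D4 and 0 reads in both H3 libraries. ME3 was at least 32.0-fold higher in D4, taking 3 reads per library as the limit in H3. All other groups expressed ME3, with 13.0 and 13.4 CPM in the control.

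Genes controlled by YAP and TAZ were mostly higher in D4. Of 24 tested members of a list of their targets and partners, 18 rose and 1 fell, against 15.7% and 24.3% over all genes, and the list median was 0.52, beside −0.07 over all genes. The same 15.7% higher and 24.3% lower over all genes stand beside each list count below. F3, the tissue factor that starts coagulation, had 184 and 174 CPM in D4, against 39.5 and 44.7 CPM in H3, a difference of 2.07 ± 0.07 (SE, adjusted p = 4.71e-11, limma). NT5E, the cell surface nucleotidase CD73, had 334 and 315 CPM in D4, against 81.5 and 89.1 CPM in H3. The classical targets CTGF, with 41.4 and 40.2 CPM in D4 against 13.6 and 12.9 CPM in H3, and CYR61, with 156 and 155 CPM in D4 against 69.2 and 80.8 CPM in H3, encode secreted matricellular proteins. ANKRD1, a nuclear ankyrin repeat protein, had 10.3 and 12.7 CPM in D4, against 2.80 and 3.20 CPM in H3.

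The targets named above include the largest differences of the list. The transducers themselves rose less than those, beside a list median of 0.52. YAP1 differed by 0.50 and WWTR1, which encodes TAZ, by 0.73, while among the TEAD factors TEAD1 (0.54) and TEAD4 (0.39) rose, TEAD2 (−1.07) fell and TEAD3 (0.02) did not pass. YAP1, AMOTL1 and ARHGEF17 lie in the chromosome 11 stretch. With window medians subtracted, 20 members were higher and 1 lower. Set against the control libraries, which both comparisons share, the list median was 0.34 in D4 and −0.25 in H3.

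Windows of 250 bases before annotated starts in RefSeq (GRCh38.p14) were searched on both strands for GGAATG or its complement CATTCC, letters that TEAD factors bind. Of the 24 tested list members 17 matched the table, and 8 of these (47.1%) held the letters, against 13.4% of the matched tested genes and 14.3% of all genes in the table. Other sets were searched too. The letters were in 2 of 8 matched genes of the largest rises and 0 of 10 of the largest falls. They were in 0 of 16 ERK outputs, 1 of 16 matrix proteases and inhibitors and 1 of 15 basal squamous genes. A match is a description of the sequence and not a bound site, and TEAD targets are partly defined by such letters. The 6 stretches below are those of the list members with these letters that rose in D4, with the letters in capitals, 5′ to 3′ on the strand of the gene. They lie at chr10:90921190-90921327 (minus) for ANKRD1, chr14:22976876-22976921 (minus) for AJUBA, chr3:134374491-134374536 (minus) for AMOTL2, chr19:41226523-41226568 (plus) for AXL, chr1:218345131-218345176 (plus) for TGFB2 and chr11:102110265-102110310 (plus) for YAP1.
ANKRD1: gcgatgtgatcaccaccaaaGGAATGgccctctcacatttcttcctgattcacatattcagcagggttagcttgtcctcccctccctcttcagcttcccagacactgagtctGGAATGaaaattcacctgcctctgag
AJUBA: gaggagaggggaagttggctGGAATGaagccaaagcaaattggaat
AMOTL2: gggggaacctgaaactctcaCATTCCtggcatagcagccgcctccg
AXL: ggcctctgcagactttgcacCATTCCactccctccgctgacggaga
TGFB2: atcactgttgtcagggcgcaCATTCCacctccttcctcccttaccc
YAP1: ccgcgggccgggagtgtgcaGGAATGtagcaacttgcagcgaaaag
AXL, a receptor tyrosine kinase, differed by 0.73, TGFB2, a TGF-beta ligand, by 0.93, the LIM protein gene AJUBA by 0.47 and the angiomotin family gene AMOTL2 by 0.26. Of the members with the letters, NUAK2 (0.23) and PTPN14 (0.00) did not pass.

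Transcripts that report ERK activity were mostly higher in D4 too, with 14 of 24 higher, 4 lower and a median of 0.42. DUSP6, the phosphatase that removes phosphate from ERK, had 78.0 and 78.8 CPM in D4, against 13.4 and 14.1 CPM in H3 and 73.1 and 70.0 CPM in the control. The difference was 2.43 ± 0.08 (SE, adjusted p = 2.79e-11, limma), and the D4 level was near that of the control. FOSL1, an AP-1 subunit, had 89.8 and 95.7 CPM in D4, against 42.4 and 39.9 CPM in H3. DUSP5 (0.99), DUSP7 (0.83), DUSP4 (0.80), SPRY2 (0.68), SPRY4 (0.42), MYC (0.42) and CCND1 (0.89), which encodes cyclin D1, rose as well.

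The members did not all move together. DUSP2 (−2.64), SPRY1 (−0.67), ETV1 (−0.55) and EPHA4 (−0.35) fell, and ETV4 (−0.13) and ETV5 (0.16) did not pass. Without the second D4 library the lower count was 2 in place of 4. DUSP6 and the pleckstrin-domain gene PHLDA1 (1.01) lie in a stretch of chromosome 12 that was higher in D4 by a median of 0.38, and with window medians subtracted they still differed by 2.06 and 0.64. Against the shared control libraries the list median was −0.25 in D4 and −0.78 in H3.

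Upstream of these outputs, receptors and ligands of the EGF family differed. Of 29 tested receptor tyrosine kinases and EGF ligands, 13 were higher in D4 and 6 lower, with a median of 0.14. EGFR had 526 and 525 CPM in D4, against 223 and 258 CPM in H3 and 587 and 556 CPM in the control, a difference of 1.13 ± 0.07 (SE, adjusted p = 1.04e-08, limma). The ligand gene EREG had 55.8 and 49.5 CPM in D4, against 13.8 and 17.0 CPM in H3. NRG1, the ligand of ERBB3 and ERBB4, had 108 and 113 CPM in D4, against 34.9 and 42.7 CPM in H3. AREG (1.34), EPGN (0.90), TGFA (0.86) and HBEGF (0.58), further EGFR ligands, rose too, as did MET (0.67) and EPHA2 (0.78), which encodes an ephrin receptor known to bind SHIP2. The receptor genes INSR (−1.14), ERBB3 (−0.76), EPHB3 (−0.75), ERBB2 (−0.41), EPHA4 (−0.35) and TYRO3 (−0.31) were lower in D4.

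The cells also differed in the keratins and anchoring proteins of basal squamous cells. Of 26 tested genes 15 were higher in D4 and 4 lower, with a median of 0.47. Without the first H3 library the lower count was 1. ITGB4, a chain of the hemidesmosome integrin, had 689 and 881 CPM in D4, against 373 and 330 CPM in H3. CD44, the hyaluronan receptor, had 807 and 776 CPM in D4, against 344 and 353 CPM in H3. KRT5, the keratin of basal cells, had 53.02 and 57.4 CPM in D4, against 17.1 and 19.4 CPM in H3 and 13.6 and 12.8 CPM in the control. LAMB3 (0.70) and LAMA3 (0.57), which encode chains of the basement membrane laminin 332, rose. KRT15 (−0.51), KRT16 (−0.39) and COL17A1 (−0.20) fell. KRT6A had 10.3 and 12.3 CPM in D4, against 6.05 and 4.75 CPM in H3, both far below the 899 and 919 CPM of the control, and it shares reads with its near-identical paralogs KRT6B and KRT6C. SOX2, a squamous lineage factor, was under the filter, with 0.70 and 0.65 CPM in D4, against 0.35 and 0.35 CPM in H3 and 7.0 and 7.8 CPM in the control.

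The AP-1 letters TGAGTCA or TGACTCA were present before starts of 4 of 15 matched genes of this list (26.7%), against 4.26% of the matched tested genes and 5.19% of all genes in the table. In the other sets searched they were in 0 of 8 matched genes of the largest rises and 1 of 10 of the largest falls. They were in 2 of 16 ERK outputs, 2 of 16 matrix proteases and inhibitors and 1 of 17 members of the YAP and TAZ list. The 4 stretches of the present list are shown because their genes all rose in D4, PERP (0.29), a desmosome-associated protein, and S100A2 (0.58), a calcium-binding protein, beside LAMA3 and LAMB3. They lie at chr18:23872875-23872977 (plus) for LAMA3, chr1:209651415-209651461 (minus) for LAMB3, chr6:138107494-138107540 (minus) for PERP and chr1:153565870-153565916 (minus) for S100A2, with the letters in capitals.
LAMA3: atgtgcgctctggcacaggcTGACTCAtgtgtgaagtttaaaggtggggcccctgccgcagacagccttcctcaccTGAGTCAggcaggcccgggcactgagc
LAMB3: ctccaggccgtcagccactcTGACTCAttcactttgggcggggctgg
PERP: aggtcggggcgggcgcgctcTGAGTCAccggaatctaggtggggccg
S100A2: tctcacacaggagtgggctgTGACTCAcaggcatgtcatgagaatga

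**Figure D2:**
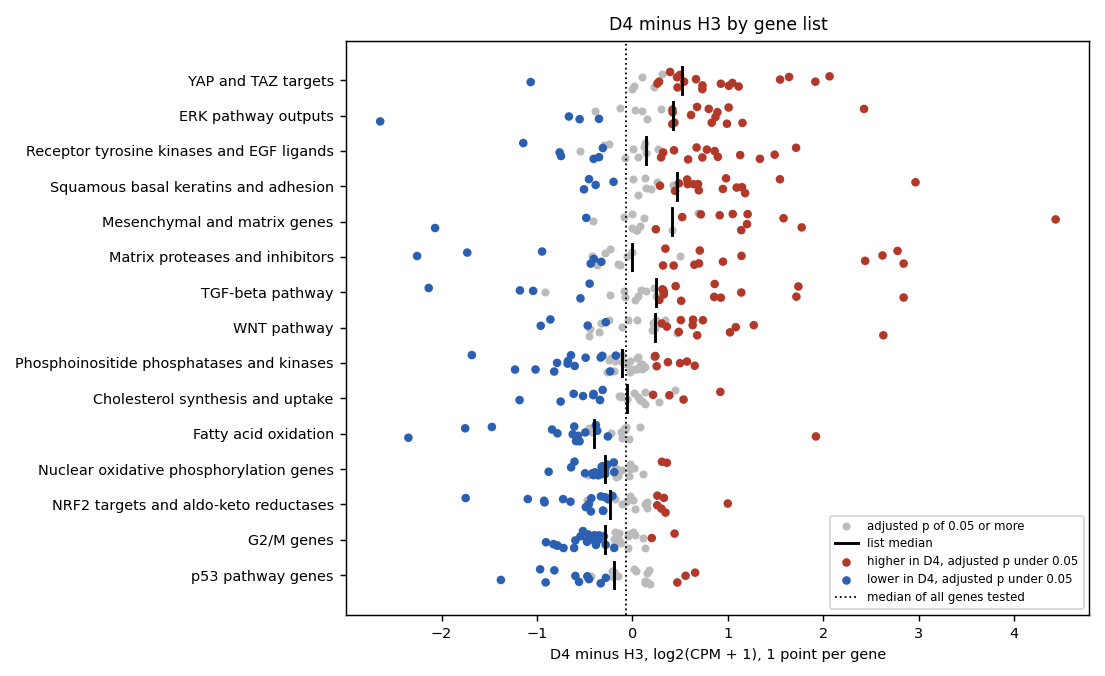
D4 minus H3 on the log2(CPM + 1) scale (horizontal axis), 1 point per tested gene, for 15 gene lists; coloured points passed the test, black bars are list medians and the dotted line is the median of all genes, −0.07. The YAP and TAZ list has 18 of 24 genes coloured as higher in D4, and the fatty acid oxidation list has 14 of 26 coloured as lower, with CPT1A at 1.92.

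Of 23 tested mesenchymal and matrix genes 11 were higher in D4 and 2 lower, and 7 of those higher reached 2-fold. COL4A1, a basement membrane collagen, had 15.1 and 17.1 CPM in D4, against 3.45 and 4.60 CPM in H3. LOXL2, a collagen cross-linking oxidase, had 43.9 and 48.2 CPM in D4, against 14.1 and 15.2 CPM in H3. COL6A1, a chain of collagen VI, went the other way with 1.3 and 1.6 CPM in D4, against 9.79 and 8.74 CPM in H3. Among 27 tested matrix proteases and inhibitors 12 were higher and 6 lower, with a median of −0.00. MMP1 had 7.65 and 11.5 CPM in D4, against 0.35 and 0.70 CPM in H3, and MMP10 had 10.3 and 8.94 CPM in D4, against 0.80 and 0.65 CPM in H3. Both lay far below the control, at 110 and 95.5 CPM for MMP1 and 36.3 and 29.7 CPM for MMP10. They neighbour each other in the chromosome 11 stretch, and with window medians subtracted they differed by 2.37 and 2.2.

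Genes of the TGF-beta pathway were higher in D4 in 14 of 29 cases and lower in 5. INHBA, the activin A subunit, had 12.1 and 11.1 CPM in D4, against 2.60 and 2.95 CPM in H3. FST, which encodes the activin antagonist follistatin, had 17.6 and 18.1 CPM in D4, against 4.35 and 5.15 CPM in H3 and 57.3 and 55.8 CPM in the control. ID2, a BMP-responsive inhibitor of differentiation, had 11.3 and 11.8 CPM in D4, against 51.9 and 56.6 CPM in H3 and 50.6 and 48.9 CPM in the control. Clones G4 and G10 were low in ID2 too, with means of 17.2 and 12.5 CPM. In the WNT list 12 of 30 genes were higher and 4 lower. The ligand gene WNT7A had 9.65 and 8.49 CPM in D4, against 0.60 and 0.65 CPM in H3 and 16.8 and 23.2 CPM in the control. DKK1, a secreted WNT inhibitor, had 101 and 104 CPM in D4, against 39.8 and 43.7 CPM in H3.

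Around SHIP2 itself, 7 of 41 tested genes of phosphoinositide metabolism were higher in D4 and 14 lower, with a median of −0.11. These stood near the 15.7%, 24.3% and −0.07 of all genes, so the list is not set apart by its counts. INPP5J, another 5-phosphatase, had 2.5 and 2.6 CPM in D4, against 9.69 and 11.1 CPM in H3 and 0.90 and 1.1 CPM in the control. PIK3C2B, a class II PI3K, had 46.3 and 51.3 CPM in D4, against 114 and 117 CPM in H3. FIG4, a phosphatase of the endolysosomal lipid PI(3,5)P2, had 11.4 and 9.84 CPM in D4, against 25.2 and 19.98 CPM in H3. The regulatory subunit PIK3R1 (−0.82) fell, whereas the catalytic subunit PIK3CA (0.10) did not pass. These counts moved when a library was left out: to 3 higher and 9 lower without either H3 library, to 3 higher without the first D4 library and to 9 lower without the second.

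Of 24 tested AKT and mTOR genes, 5 were higher and 6 lower, and with size factors 7 were higher and 3 lower, so no direction held. SGK1, a kinase related to AKT, had 7.75 and 8.29 CPM in D4, against 0.85 and 1.6 CPM in H3. TXNIP, a repressor of glucose uptake counted among FOXO targets, had 94.4 and 85.2 CPM in D4, against 19.7 and 21.8 CPM in H3 and 150 and 139 CPM in the control. Of the 23 tested FOXO targets 4 were higher and 7 lower, beside 15.7% higher and 24.3% lower over all genes. Among 39 SHIP2 partners and endocytic genes 11 were higher and 14 lower, and with size factors 13 were higher and 10 lower.

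Fatty acid oxidation separated the clones in the other direction. Of 26 tested genes 14 were lower in D4 and 1 higher, with a median of −0.41. ACADSB, an acyl-CoA dehydrogenase, had 2.5 and 1.9 CPM in D4, against 10.1 and 9.34 CPM in H3. DECR1, the dienoyl-CoA reductase, had 13.0 and 12.04 CPM in D4, against 35.7 and 37.5 CPM in H3. HADHA, the alpha subunit of the trifunctional protein, had 146 and 128 CPM in D4, against 244 and 249 CPM in H3. DECR1 lies in a stretch of chromosome 8 and HADHA in one of chromosome 2 that were both lower in D4. After window medians were subtracted these genes differed by −0.94 and −0.27, and the list stood at 15 lower and 2 higher.

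The exception was CPT1A, which admits long-chain fatty acids to mitochondria. It had 10.9 and 9.14 CPM in D4, against 1.80 and 2.00 CPM in H3, a difference of 1.92 ± 0.10 (SE, adjusted p = 2.36e-09, limma). Both clones were far below the control, at 227 and 219 CPM, while the G4 mean was 157 CPM and the G10 mean 5.12 CPM. Each clone's own difference from the shared control was −4.35 in D4 and −6.27 in H3. SCNN1A, which encodes part of the epithelial sodium channel, stood on the opposite side of the control: 162 and 166 CPM in D4, against 89.5 and 84.6 CPM in H3 and 14.6 and 15.6 CPM in the control.

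**Figure D3:**
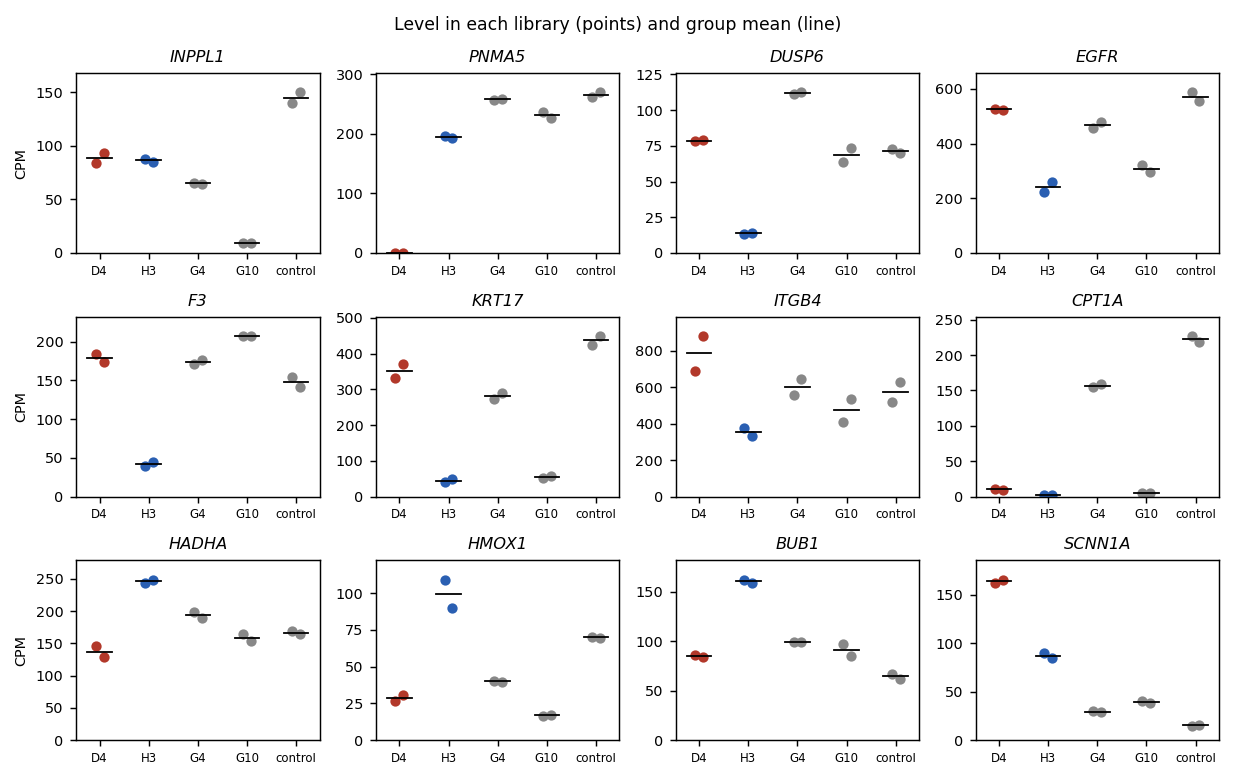
CPM of 12 genes (vertical axes from 0) in each library of D4, H3, G4, G10 and the control; points are libraries and lines are group means. INPPL1 overlaps between D4 and H3, DUSP6 and F3 are low in H3 alone, and CPT1A is low in D4, H3 and G10.

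Nuclear genes of oxidative phosphorylation were lower in D4 in 20 of 34 cases and higher in 2, by small amounts, with a median of −0.29. UQCRB, a subunit of complex III, had 71.9 and 63.9 CPM in D4, against 125 and 126 CPM in H3, and COX6C, a subunit of complex IV, had 79.2 and 69.4 CPM in D4, against 117 and 116 CPM in H3. Both lie in the chromosome 8 stretch, and with window medians subtracted 9 genes of the list were lower and 1 higher. Of the 15 mitochondrially encoded genes 3 were higher and 1 lower, and with size factors 9 were higher and 0 lower.

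Genes induced by NRF2, a transcription factor of the oxidative stress response, were lower in D4 in 16 of 32 cases and higher in 6, though without the second H3 library 2 were higher. HMOX1, which encodes the heme-degrading oxygenase, had 26.9 and 30.9 CPM in D4, against 109 and 90.0 CPM in H3 and 70.5 and 69.4 CPM in the control. ABCC3, an efflux pump, had 145 and 146 CPM in D4, against 281 and 274 CPM in H3. ABCC2, a related pump, had 2.55 and 4.05 CPM in D4, against 1.30 and 0.95 CPM in H3.

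Mitotic genes were lower in D4 as well. Of 36 tested G2/M genes 20 were lower and 2 higher, with a median of −0.29, and none reached 2-fold. BUB1, a spindle checkpoint kinase, had 86.2 and 84.0 CPM in D4, against 162 and 158 CPM in H3 and 66.9 and 62.2 CPM in the control. CCNB1, the mitotic cyclin B1, had 156 and 150 CPM in D4, against 262 and 266 CPM in H3. The phosphatase CDC25C, which activates CDK1, had 11.9 and 12.8 CPM in D4, against 23.7 and 21.8 CPM in H3. The mitotic kinase gene PLK1, with 126 and 139 CPM in D4 and 158 and 142 CPM in H3, did not pass (−0.18, adjusted p = 0.0839, limma), but with window medians subtracted it differed by −0.45 and passed (adjusted p = 0.00166, limma). MKI67 (−0.14), CDK1 (0.11) and FOXM1 (−0.05) did not pass. Of 34 G1/S and replication genes 9 were higher and 7 lower. The share of cells in each phase and the RNA per cell cannot be told apart in bulk libraries.

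Of 26 tested genes of the p53 pathway 10 were lower in D4 and 3 higher, and without the first H3 library 6 were lower. BTG2, an antiproliferative gene, had 12.6 and 12.4 CPM in D4, against 33.9 and 34.5 CPM in H3 and 13.1 and 12.2 CPM in the control. MDM2 (0.56), which encodes a ubiquitin ligase, PLK3 (0.66) and the death receptor gene FAS (0.47) were higher. CDKN1A, the cell cycle inhibitor p21, differed by −0.46.

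Part of the difference between the clones ran along chromosomes. The 12699 genes that averaged 5 CPM or more were cut into 251 windows of about 50 neighbours, whose medians ran from −0.92 to 0.53. Windows at least 0.4 from the median of −0.05 formed 11 stretches holding 8.25% of these genes, 13.5% of the calls and 19.1% of the calls at 2-fold. The stretches were chosen by the same differences that gave the calls. Their larger share of calls follows from that choice and is a description only. The cut set their bounds, and some lay in longer runs of windows of 1 sign. Medians ran from −0.56 to −0.32 over 198264 to 21125270 of chromosome 19 and from −0.47 to −0.40 over 50313487 to 90047773 of chromosome 16. On chromosome 12 they ran from 0.30 to 0.47 over 58872149 to 133214831. Chromosome 1 held no stretch, yet its windows from 162561506 to 248919946 ran from −0.44 to −0.24. DNA copy number was not measured here, and its part in these stretches and runs was not tested.

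The stretches differed in which clone departed from the control. On chromosome 11, from 70203163 to 134265855, 251 genes had a median of 0.48, with a median of −0.03 in D4 and −0.49 in H3 against the control libraries that both share. It holds INPPL1, the cortactin gene CTTN (0.23), the collagen chaperone gene SERPINH1 (0.34), YAP1, MMP1 and MMP10, and ME3 lies within its bounds. On chromosome 8, from 48917604 to 108435333, 150 genes had a median of −0.51, with −0.04 in D4 and 0.57 in H3 against the control. The end of chromosome X, from 149476990 to 156025710, was the reverse case: 68 genes had a median of −0.92, with −0.95 in D4 and −0.08 in H3 against the control. There 64 of the 68 genes were lower in D4 and 0 higher, among them RPL10, a ribosomal protein gene, with 248 and 253 CPM in D4, against 484 and 486 CPM in H3. IRAK1, a kinase of interleukin-1 signalling, had 120 and 142 CPM in D4, against 287 and 275 CPM in H3.

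PNMA5 lies in that chromosome X stretch, and its difference of −7.45 became −6.52 with window medians subtracted. The same stretch holds all 6 cancer-testis genes that were lower in D4 of 9 tested, in a list in which 0 were higher. MAGEA4 had 104 and 97.7 CPM in D4, against 209 and 210 CPM in H3, and CTAG2 had 13.5 and 18.2 CPM in D4, against 41.2 and 42.2 CPM in H3. MAGE genes have near-identical copies, so that reads may be split between them. With window medians subtracted 2 members were lower and 1 higher, MAGEA3 (−0.17) and MAGEA4 (−0.16) no longer passed, and MAGEA11, with 1.6 and 2.1 CPM in D4, against 16.9 and 17.5 CPM in H3 and 0 CPM in both control libraries, still differed by −1.79.

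The remaining stretches were shorter or milder. Medians were 0.38 and 0.47 on 2 stretches of chromosome 12 (71663009 to 106510198 and 121308245 to 133214831), 0.35 at the end of chromosome 17 (79778132 to 83095119), −0.53 on chromosome 2 (20560448 to 27623215), −0.46 on each of 2 stretches of chromosome 16 (50313487 to 67936017 and 81053587 to 90047773), and −0.52 and −0.56 on chromosome 19 (7515292 to 10336248 and 17719242 to 21125270). The metallothionein genes MT2A, MT1X and MT1E, which encode metal-binding proteins, lie in the first stretch of chromosome 16 yet were higher in D4. MT2A had 125 and 173 CPM in D4, against 53.8 and 45.4 CPM in H3 and 36.8 and 45.0 CPM in the control, and these genes have similar copies that can share reads.

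**Figure D4:**
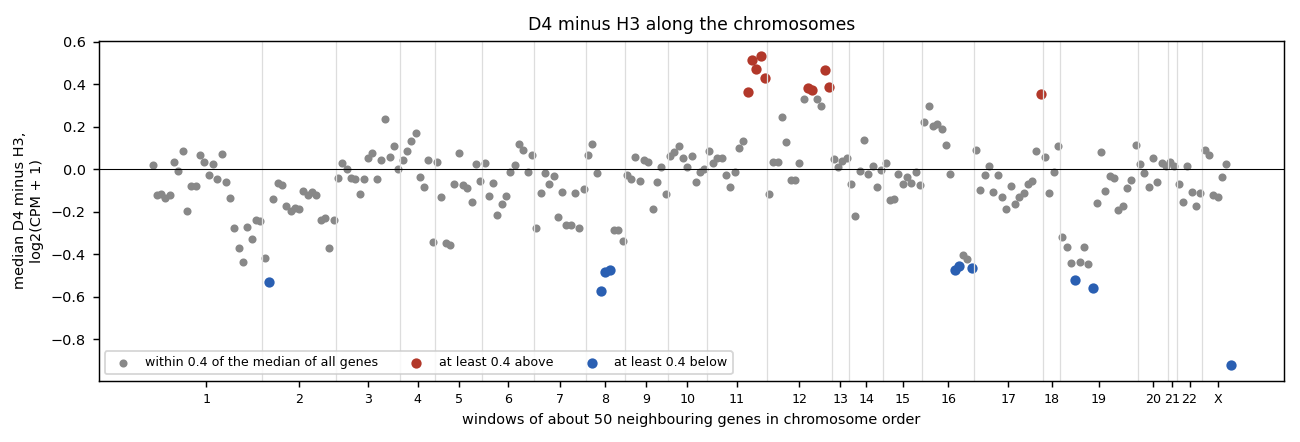
Median D4 minus H3 on the log2(CPM + 1) scale (vertical axis) of 251 windows of about 50 neighbouring genes in chromosome order; coloured windows lie at least 0.4 above or below the median of all genes. The lowest point, −0.92, is the last window of chromosome X, and the highest, 0.53, belongs to the run on chromosome 11.

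The control level placed the 829 genes that differed at least 2-fold. Of the 285 higher in D4, the control was above both clones for 79, between them and nearer D4 for 75, between them and nearer H3 for 76, and below both for 55. Of the 544 lower in D4, it was above both for 92, between them and nearer D4 for 198, between them and nearer H3 for 147, and below both for 107. In 75 of the 285 and 110 of the 544, D4 and H3 passed the test against the shared control in opposite directions.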

How the data were processed

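RNA of 10 libraries was made into cDNA libraries with the Ovation Solo kit. The deposited table held CPM of gene-assigned reads for 58302 genes, 1 column per library, and the submitters' processing notes name STAR 2.5.3a, HTSeq and hg38. Strand setting, annotation release and filters are not given in the sources used here. Positions came from GENCODE release 29, matched for 58039 genes. CPM is not adjusted for gene length.

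Reads were estimated by undoing the scaling of the CPM values to a common total, which gave back 99.7% to 99.88% of the values above 0 to the same step of about 0.05 CPM and 100.0% to within 1 step. These estimates served for depth, floors and limma-voom. Intervals and floors cover counting error only.

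Genes with at least 1 CPM in 2 of the 4 libraries were fitted with limma 3.58.1 (trend, robust moderation, R 4.3.3) on log2(CPM + 1). All 10 libraries entered, with 1 coefficient per group and 5 residual degrees of freedom, and the pseudocount understates changes of low genes. Adjustment followed Benjamini and Hochberg over all genes, with a threshold of 0.05. The fit was tried on simulated data with 1 set spread between libraries that was not taken from these data. There it recovered 23 of 67 genes seeded at 1.5-fold, 62 of 67 at 2-fold and 66 of 66 at 4-fold. It also called 4 of 16595 unchanged genes. Windows used genes with a mean of 5 CPM or more.

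The members and the 43 gene lists were chosen with earlier results of these data known. Genes named were INPPL1, CPT1A, EGFR, SCNN1A, PLK1, TP63, SOX2 and KRT6A, the 15 largest rises and falls with separated libraries and 5 CPM or more on average, up to 4 called members a list, up to 4 of the highest genes a stretch, and genes at the floor. Some genes that this rule names are not reported here. Further list members were named after their values were seen. Alternatives were other scaling, filters, pseudocounts and samples, limma-voom, a replicate block, leaving out each library and window medians subtracted. Python 3.11.15, numpy 2.4.6, pandas 2.3.3 and matplotlib 3.10.9 were used.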

Additional observations from a re-analysis of the deposited data

Results flagged for a closer look

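For 9 of the genes with the largest differences, both clones passed the test against the control, in opposite directions, and the difference between the clones passed too. The 2 comparisons share the control libraries. Higher in D4 than in the control and lower in H3 were SRGN (D4 minus H3 4.42, D4 minus control 1.35, H3 minus control −3.07), UPK1B (2.87, with 2.11 and −0.76), CYP2B6 (2.77, with 1.58 and −1.19), TNS4 (2.62, with 0.38 and −2.24), ADAM19 (2.44, with 1.11 and −1.33) and BDNF (2.44, with 1.73 and −0.71). Lower in D4 than in the control and higher in H3 were BTBD11 (−3.66, with −2.53 and 1.13), DUSP9 (−3.38, with −2.02 and 1.36) and DUSP2 (−2.64, with −1.31 and 1.34). All values are on the log2(CPM + 1) scale, and the adjusted p of the differences between the clones ran from 4.93e-11 for TNS4 to 1.73e-07 for CYP2B6 (limma).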

How the results depend on the processing

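The total of 6751 calls lay between 4658 and 5466 with 1 library left out and between 5585 and 8349 otherwise. Without the first H3 library 1707 genes were higher in D4, the lowest of a range up to 2200 over the 4 libraries left out. Genes higher at 2-fold numbered 444 with a pseudocount of 0.1, 138 with 5 and 468 by limma-voom. Genes lower at 2-fold numbered 922, 132 and 951 in those settings and 310 at a mean of at least 5 CPM. Genes at the floor numbered 4 in each direction at a level of 3 CPM and 1 at 10 CPM. None of the 30 largest differences lost its call or changed sign.

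Subtracting window medians, which removes what neighbours share, turned INPPL1 to −0.39 and changed the sign of further genes of the stretches. Past the threshold after subtraction were FLNA 0.50, SLC7A5 0.42, NAP1L1 −0.15, UPF1 0.32, RAB10 0.27, TMEM123 −0.17, ELAVL1 0.41, HSPA8 −0.16, PPM1G 0.56 and YWHAZ 0.41. ELAVL1 had not been called before subtraction (−0.02). The others changed sign but did not pass after subtraction: TXNRD1 −0.015, RPL13 0.012, SLC25A3 −0.14, SERPINH1 −0.14, HNRNPM 0.10, CTTN −0.037, ADGRG1 0.017, DNMT1 0.10, P4HB −0.0715, GOT2 0.046, PABPC1 0.0475 and EIF3E 0.12.

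With the replicate number as a block 7379 genes were called, 2911 higher and 4468 lower. Deviations of same-numbered libraries correlated at −0.192 for D4 and H3 and at −0.251 to −0.088 for H3 and the other groups, but at 0.232 to 0.438 for the 6 pairs of groups without H3, and the labels do not say what a number stands for. With the H3 numbers crossed, a setting chosen after seeing the data, 8349 were called. Depth limits the genes under about 0.3 CPM.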

Other observations

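Counts of further gene groups stand beside 15.7% of all genes higher in D4 and 24.3% lower. Of 33 tested hypoxia and glycolysis genes 13 were higher in D4 and 7 lower, and without the first D4 library 7 were higher. SLC2A1, the glucose transporter GLUT1, had 321 and 315 CPM in D4, against 146 and 147 CPM in H3. PFKFB4, a regulator of glycolysis, had 97.9 and 104 CPM in D4, against 48.2 and 57.3 CPM in H3. Of 20 tested cytokine and NF-kB genes 9 were higher and 6 lower. LIF, an interleukin-6 family cytokine, had 94.6 and 101 CPM in D4, against 44.0 and 49.5 CPM in H3. IL1RN, which encodes the interleukin-1 receptor antagonist, had 3.85 and 6.45 CPM in D4, against 14.5 and 14.1 CPM in H3.

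Genes of the amino acid response driven by ATF4 were lower in D4 in 12 of 31 cases and higher in 6. ASNS, the asparagine synthetase, had 19.7 and 20.1 CPM in D4, against 49.0 and 49.4 CPM in H3 and 102 and 101 CPM in the control. In the list of desmosome and tight junction genes 6 of 26 were higher and 8 lower. TJP3, a junction scaffold, had 1.90 and 1.80 CPM in D4, against 14.04 and 11.3 CPM in H3. The control had 0.90 and 0.70 CPM of TJP3. CLDN1, a claudin, had 158 and 144 CPM in D4, against 77.5 and 78.1 CPM in H3. Of 17 tested simple epithelial genes 5 were higher, CLDN1 among them, and 5 lower, so that list had no direction. Among those lower, ELF3, an epithelial transcription factor, had 46.3 and 43.1 CPM in D4, against 136 and 122 CPM in H3. ESRP1, a splicing factor of epithelial cells in the chromosome 8 stretch, had 93.5 and 88.1 CPM in D4, against 199 and 205 CPM in H3. Genes of cholesterol synthesis and uptake, with 4 of 25 higher and 8 lower, and 7 and 7 with size factors, had medians of 1.00 in D4 and 1.06 in H3 against the shared control.

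Of 44 cytosolic ribosomal protein genes 19 were lower in D4 and 1 higher, and 12 were lower with size factors. Without the first H3 library, and with window medians subtracted, 11 were lower.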
